A study of Mus musculus with 45 samples.

Results

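The 37 genes described here are the antiviral genes classically induced by type I interferon, among the 50600 genes listed in RNA-seq tables of mouse distal colon. They were chosen by name from knowledge of the pathway, but with earlier results of these data known. The list holds RNA sensors, oligoadenylate synthetases, the IFIT proteins, ISG15 and its conjugation enzymes, direct antiviral effectors, ADP-ribosyltransferases and smaller groups. All 37 were found by symbol, 36 of them are annotated as protein coding, and Mx2 is annotated as a polymorphic pseudogene. All 37 passed the filter on low counts in every comparison.

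The libraries come from 6 groups. IL10 knockout mice received vehicle (10 libraries) or compound 13 at 10 mg/kg (7 libraries) or 30 mg/kg (9 libraries). A cohort labelled day 77, also IL10 knockout, received anti-p40, an antibody against the subunit shared by interleukins IL12 and IL23 (5 libraries), or vehicle (5 libraries). Wild-type (WT) mice, 8 libraries, carry no listed treatment. The series title presents the work as a study of a selective antagonist of GPR4, a proton-sensing receptor. Every comparison within the knockout is therefore made on a colon that lacks IL10, a cytokine that restrains inflammation; IL10-deficient mice are a long-used model of spontaneous colitis. One more library, whose labels name both doses, was placed in no group. Age, sex, animal identity and batch are not among the labels used here, so the p-values measure only the spread between libraries, which may in part be technical.

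Type I interferons, the interferon alpha family and interferon beta, bind the receptor IFNAR1-IFNAR2 and activate the kinases JAK1 and TYK2. Signalling ends in a transcription factor complex that holds STAT2 and IRF9 and binds a DNA element called the interferon-stimulated response element. Interferon lambda uses the same complex through a receptor found mainly on epithelium, while interferon gamma acts mainly at a different element, the gamma-activated site, and shares many target genes with type I interferon. In the gut these genes limit viral replication, and several are also raised in inflamed mucosa without a known virus.

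The interferon-stimulated response element gives many such genes a recognisable promoter. A stretch is shown for each member whose window held a match, to the motif given below, lying wholly before the start. Matches in Ifih1, Ddx58, Eif2ak2 and Ifitm3 lie after the start and are not shown. RefSeq promoter windows on GRCm38.p6 (250 bases before to 50 after the start) were at hand for 26 of the 37 genes. In the lines below, each 40 bases long and written 5′ to 3′ along the gene's strand, capitals mark every match to the motif GAAA-NN-GAAA, where N is any base, or to its reverse complement TTTC-NN-TTTC, overlapping matches being joined.
Isg15, chr4:156200860-156200899, minus strand: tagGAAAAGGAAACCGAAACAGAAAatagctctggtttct
Oas3, chr5:120777710-120777749, minus strand: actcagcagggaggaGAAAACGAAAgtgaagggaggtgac
Oas1a, chr5:120907526-120907565, minus strand: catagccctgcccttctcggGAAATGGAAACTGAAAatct
Oas1g, chr5:120887614-120887653, minus strand: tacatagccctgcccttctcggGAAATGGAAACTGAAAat
Bst2, chr8:71537572-71537611, minus strand: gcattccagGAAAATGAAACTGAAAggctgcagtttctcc
Trim30a, chr7:104465205-104465244, minus strand: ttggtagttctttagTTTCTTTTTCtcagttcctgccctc
Rsad2, chr12:26456548-26456587, minus strand: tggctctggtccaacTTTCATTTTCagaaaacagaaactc
Ifit1, chr19:34640789-34640828, plus strand: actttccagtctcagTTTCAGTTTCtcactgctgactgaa
Ifit3, chr19:34583392-34583431, plus strand: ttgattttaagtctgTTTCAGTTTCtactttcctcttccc
Ifit3b, chr19:34607788-34607827, plus strand: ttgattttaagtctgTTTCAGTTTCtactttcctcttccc

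GAAA-NN-GAAA, read on both strands, was present for 14 of the 26 members with a window (53.8%), against 1079 of all 27025 genes with a window (3.99%). TTCNNNGAA, the palindromic core of the gamma-activated site, was present in 7 of the 26 (26.9%), against 2582 of the 27025 genes (9.55%). Oas1a, Eif2ak2, Bst2 and Ifitm3 held both forms, and the matches overlap in Bst2 and Ifitm3. The stretches of Ifit3 and Ifit3b are identical over all 40 bases, and those of Oas1a and Oas1g share the same marked run. The windows of Ifit2 and Ifi44, whose RNA fell most with anti-p40 below, hold no GAAA-NN-GAAA; this says only that the letters are not in those windows.

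Library totals lay between 22682471 and 36279743 estimated counts. Il10 itself, the deleted gene, had 0 counts in all 37 knockout libraries, which with 3 counts as the limit allows up to 0.129 CPM in the shallowest of them, and 10 counts in all over the 8 WT libraries. CPM are counts scaled to a common library total, with scaling factors set over all 45 libraries; they are used throughout unless TPM, which also correct for transcript length, are named. Within groups a few libraries stood apart for many of the antiviral genes at once: knockout vehicle library 2 was the highest of its group for 24 of the 37 and library 3 the lowest for 31, 10 mg/kg library 7 was the highest for 33, and day 77 vehicle library 3 the highest for 31. Calls and medians without them are given for knockout vehicle over WT and for anti-p40 over vehicle. For the compound comparisons, medians are given without 10 mg/kg library 7 only. Counts of genes whose groups did not overlap were not taken again without them.

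The first question is how the knockout colon differs from WT. In knockout vehicle libraries 34 of the 37 antiviral genes were higher than in WT, 1 was lower (Ifi27) and 2 did not pass the test (Isg20 and Ifi27l2a). The median log2 fold change of the 37 was 1.51, against -0.01 over all genes tested. The comparison was broad: 25.2% of the 16435 genes tested were called higher and 24.1% lower (edgeR quasi-likelihood test, Benjamini-Hochberg adjusted p under 0.05). For 16 of the 37, every knockout vehicle library lay above every WT library, which held for 3.28% of the 14677 genes with a mean of at least 1 CPM. Leaving out knockout vehicle library 2 gave 36 calls and a median of 1.45, and leaving out library 3 gave 36 calls and a median of 1.60.

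**Figure D1:**
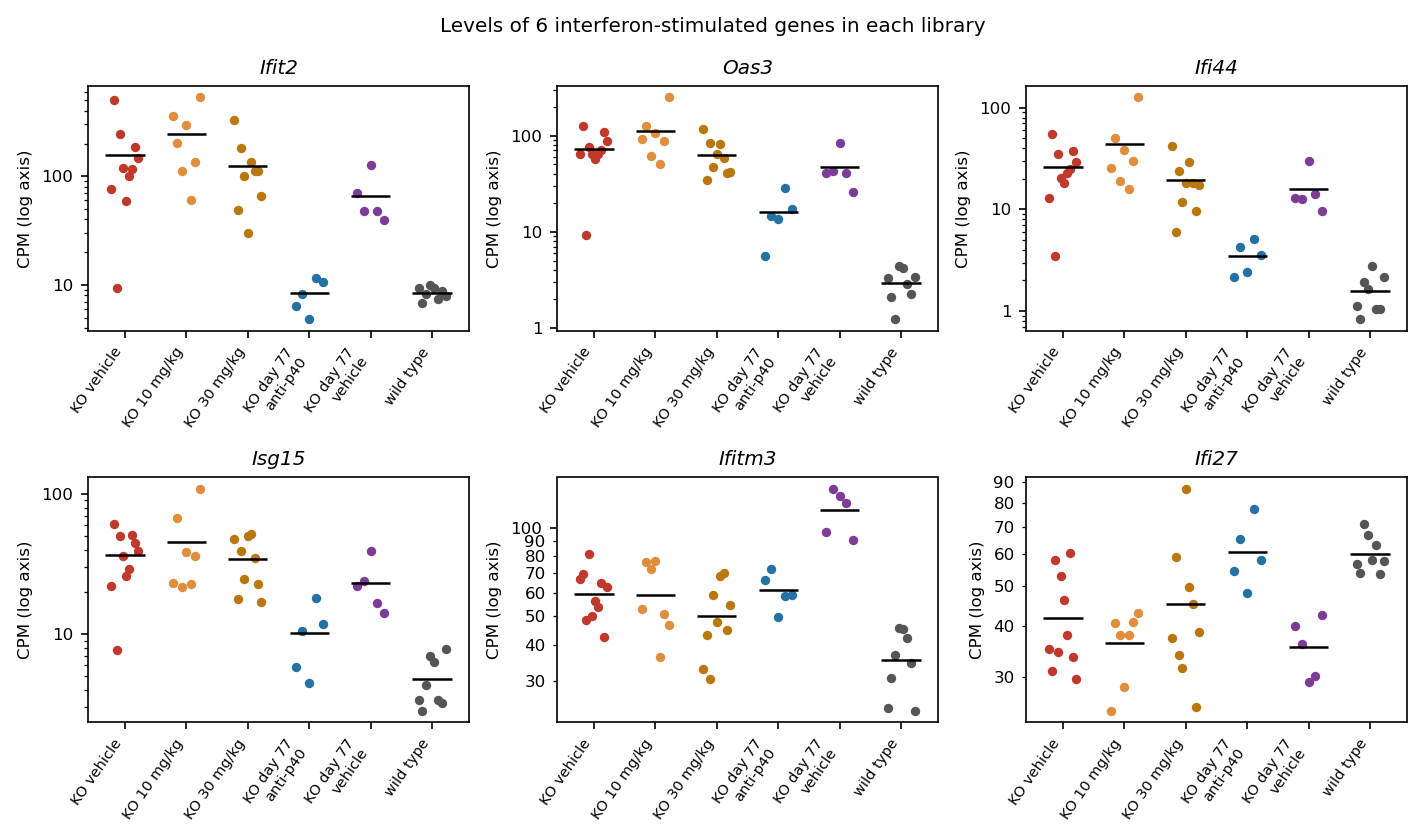
CPM of Ifit2, Oas3, Ifi44, Isg15, Ifitm3 and Ifi27 in every library of the 6 groups, on a log axis; each point is a library and the horizontal line the group mean. Ifi27 is the gene of the 6 whose levels were lower in knockout vehicle libraries (29.7 to 60.3 CPM) than in WT (53.6 to 70.9 CPM).

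Among the oligoadenylate synthetases, which make the second messenger that activates RNase L on double-stranded RNA, all 6 members rose in the knockout, with a median log2 fold change of 1.88. Oas3, which in human cells is the main activator of RNase L, had 9.22 CPM at the lowest, 67.5 at the median and 125 at the highest in knockout vehicle libraries, against 1.23, 3.10 and 4.36 CPM in WT. No knockout library overlapped the WT range. Its log2 fold change of 4.62 ± 0.39 (SE), or 24.6-fold, was the largest of the 37 (adjusted p = 5.19e-07, edgeR). Oas2 rose by 3.14 ± 0.37 (adjusted p = 7.87e-06, edgeR) and Oasl2, an OAS-like protein that carries ubiquitin-like domains, by 2.45 on the same scale. Oas1a, an RNA-activated synthetase, rose by only 0.84 ± 0.12 (adjusted p = 5.42e-05, edgeR). Oas1a had 67.5, 117 and 150 CPM in knockout vehicle libraries, against 51.9, 66.7 and 74.4 CPM in WT, so the ranges touched. Oas1g, its close paralog, rose by 0.65, and reads may be shared between these paralogs. Oasl1, described in mouse as a repressor of Irf7 translation, rose by 1.298.

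The IFIT proteins bind viral RNA that lacks host cap marks, and their genes sit together on chromosome 19. All 4 measured members rose, with a median log2 fold change of 2.15. Ifit2, which binds AU-rich RNA, had 9.25 CPM at the lowest, 118 at the median and 503 at the highest in knockout vehicle libraries, against 6.73, 8.58 and 9.97 CPM in WT. Library 3 of the knockout vehicle group, at 9.25 CPM, lay within the WT range, while the other 9 lay above it. The fold change of Ifit2 was 18.5, or 4.21 ± 0.53 (SE) on the log2 scale (adjusted p = 1.47e-05, edgeR). Ifit1, which recognises RNA lacking cap methylation, rose by 2.63 ± 0.31 (adjusted p = 8.26e-06, edgeR). Ifit3 and Ifit3b, near-identical copies whose reads the counting may have split, rose by 1.67 and 1.44.

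The ISG15 pathway attaches a ubiquitin-like protein to newly made proteins. Its 4 members rose with the highest median of any role, 2.46. Isg15, the modifier, had 7.78, 37.6 and 61.4 CPM (lowest, median and highest) in knockout vehicle libraries, against 2.84, 3.89 and 7.87 CPM in WT, and its log2 fold change was 2.94 ± 0.34 (adjusted p = 6.84e-06, edgeR). The lowest knockout library lay just below the highest WT library for Isg15. Usp18, the protease that removes ISG15 and also blocks signalling at IFNAR2, had 3.07, 13.8 and 49.4 CPM in knockout vehicle libraries, against 0.338, 1.21 and 2.78 CPM in WT. The Usp18 groups did not overlap, and its fold change was 12.5 (adjusted p = 3.66e-05, edgeR). Herc6, the main ISG15 ligase in mouse, rose by 1.98 on the log2 scale. Trim25, a ubiquitin ligase that acts on RIG-I, had 234, 336 and 405 CPM in knockout vehicle libraries, against 168, 194 and 214 CPM in WT, a log2 difference of 0.75 ± 0.09 with no overlap between groups (adjusted p = 9.04e-06, edgeR).

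Of the 6 direct effectors, 5 rose. Ifi44, which restrains cell growth and viral replication by a mechanism that is not settled, had 3.49, 23.8 and 55.7 CPM in knockout vehicle libraries, against 0.827, 1.38 and 2.75 CPM in WT. The Ifi44 groups did not overlap, and the fold change was 16.6 (adjusted p = 3.37e-06, edgeR). Rsad2 (viperin) and Cmpk2 are neighbouring genes that together make a chain-terminating nucleotide. Their log2 fold changes were 2.26 and 1.80. Mx1 and Mx2, dynamin-like GTPases that trap viral particles, rose by 1.11 and 1.86. Isg20, an exonuclease that degrades RNA, had 7.28, 10.6 and 14.5 CPM in knockout vehicle libraries, against 10.8, 13.0 and 14.4 CPM in WT. The Isg20 ranges overlapped, and its difference of -0.26 ± 0.12 did not pass (adjusted p = 0.0706, edgeR).

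The cytosolic sensors of viral RNA rose less. All 4 passed, with a median log2 fold change of 0.94. Ifih1 (MDA5), the most abundant per length, had 65.7, 127 and 178 CPM in knockout vehicle libraries, against 63.2, 78.5 and 98.1 CPM in WT, a log2 difference of 0.74 ± 0.15 with overlapping ranges (adjusted p = 0.0006, edgeR). Ddx58 (RIG-I) rose by 0.87, Eif2ak2 (PKR), the kinase that stops translation on double-stranded RNA, by 1.01, and Dhx58 (LGP2), which regulates the other helicases, by 1.51.

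Both membrane restriction factors rose. Bst2 (tetherin), which holds budding virions at the cell surface, had 20.4, 31.1 and 53.7 CPM in knockout vehicle libraries, against 9.90, 12.5 and 14.9 CPM in WT, with no overlap and a log2 fold change of 1.48. Ifitm3, which blocks fusion of incoming virions, had 42.3, 59.5 and 81.1 CPM in knockout vehicle libraries, against 23.8, 35.8 and 45.5 CPM in WT. The Ifitm3 difference was 0.75 ± 0.14 on the log2 scale (adjusted p = 0.000525, edgeR), and its ranges overlapped.

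The 3 genes of the ADP-ribosylation complex all rose, with a median log2 fold change of 1.51. Parp9, which pairs with the ubiquitin ligase Dtx3l, had 60.8, 159.8 and 239 CPM in knockout vehicle libraries, against 44.6, 58.2 and 64.9 CPM in WT. Knockout vehicle library 3 held the lowest Parp9 value and lay within the WT range. The log2 fold changes were 1.51 ± 0.19 for Parp9 (adjusted p = 1.12e-05, edgeR), 1.28 for Dtx3l and 1.57 for Parp14, a mono-ADP-ribosyltransferase. Parp9 and Dtx3l overlap on opposite strands, and the strand setting of the counting is not known.

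The 6 remaining modulators rose with a median log2 fold change of 1.66. Ifi35, a modulator of innate signalling, had 24.2, 43.4 and 53.6 CPM in knockout vehicle libraries, against 22.4, 25.8 and 29.0 CPM in WT, a log2 difference of 0.66 ± 0.12 (adjusted p = 0.000219, edgeR). Ifi204, a DNA sensor of a multigene family, rose by 1.95 ± 0.46 (adjusted p = 0.00215, edgeR), with wide spread: 1.97, 5.40 and 26.4 CPM in knockout vehicle libraries, against 1.41, 2.07 and 2.39 CPM in WT. Trim30a, a mouse TRIM protein that damps NF-kB signalling, rose by 1.94, Rtp4, a chaperone that also restrains flaviviruses, by 1.80, the pro-apoptotic Xaf1 by 1.51, and the nuclear body protein Sp100 by 1.09.

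The ISG12 pair did not rise. These are small hydrophobic proteins that interferon raises in many tissues. Ifi27 had 29.7, 36.5 and 60.3 CPM in knockout vehicle libraries, against 53.6, 57.8 and 70.9 CPM in WT, and 8 of the 10 knockout libraries lay below every WT library. Its log2 fold change was -0.52 ± 0.13 (adjusted p = 0.00414, edgeR). Ifi27l2a had 6.78, 14.1 and 23.3 CPM in knockout vehicle libraries, against 9.26, 14.01 and 29.4 CPM in WT, a difference of -0.17 ± 0.24 that did not pass (adjusted p = 0.585, edgeR).

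**Figure D2:**
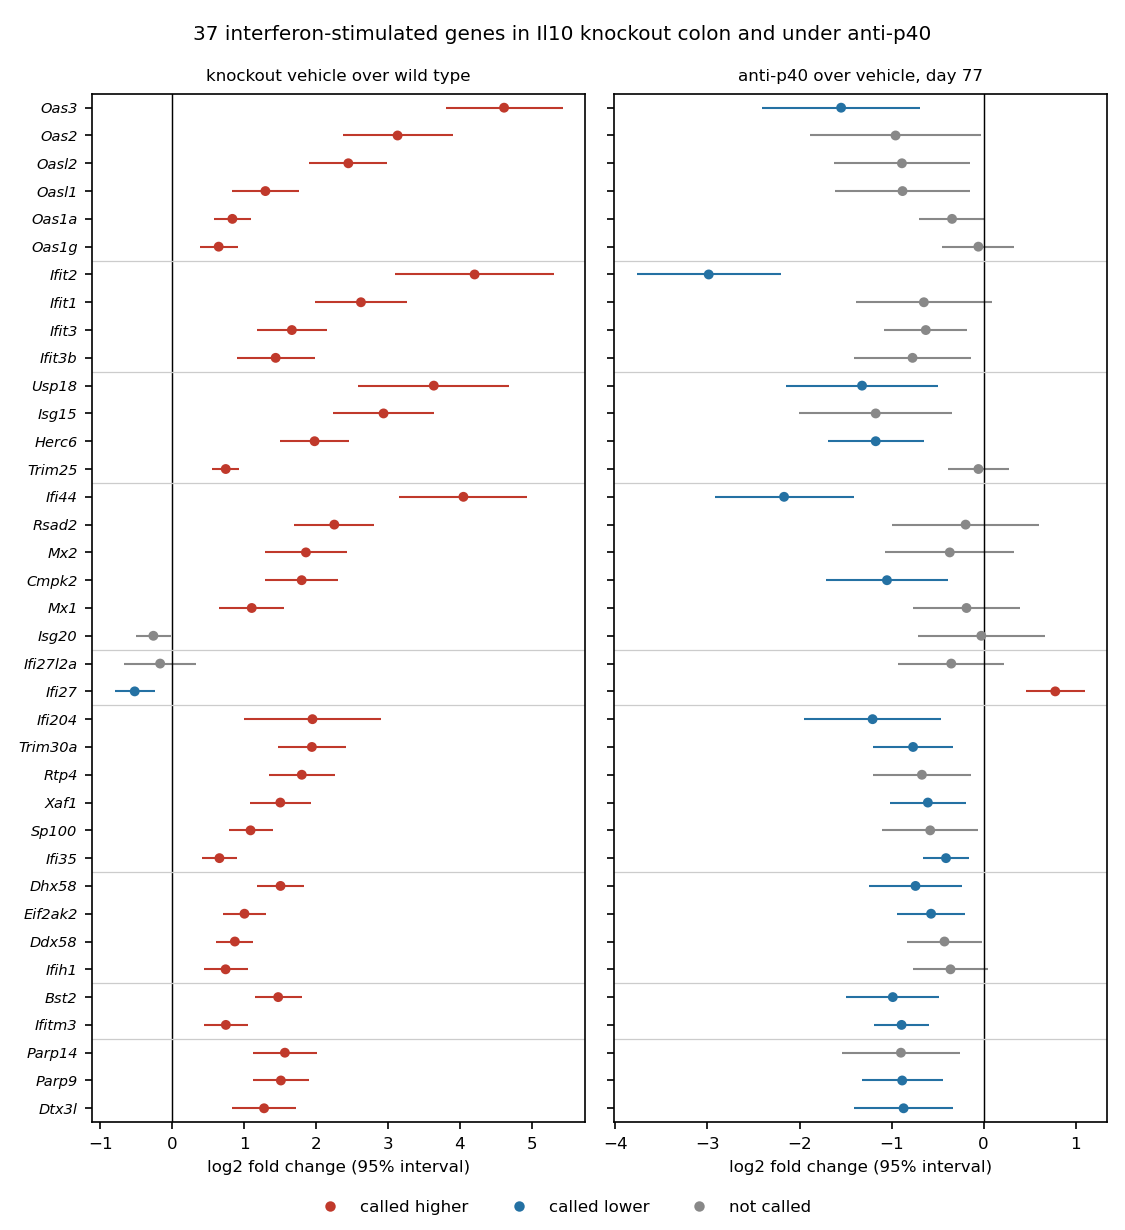
Log2 fold change with 95% interval of each of the 37 genes, grouped by role, for knockout vehicle over WT (left) and, within the day 77 cohort, anti-p40 over vehicle (right); red points were called higher, blue called lower and grey not called. In the left panel 34 points are red and 1 is blue, and in the right panel 16 are blue and 1 is red.

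The members' calls moved little with the scaling, while those over all genes moved more. With library totals alone as the scale, 34 of the 37 were called higher and 2 lower, while the all-gene split moved to 2767 higher and 5658 lower, and the all-gene median shifted to -0.16. On log2(TPM + 1) with limma the all-gene split was 2065 higher and 5696 lower, with a median of -0.17.

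The ligands of this pathway were near the limit of detection. Of 18 type I interferon genes listed, 15 had no count in any of the 44 grouped libraries, which allows up to 0.00254 CPM for each over those libraries together (3 counts, counting error only). The other 3 were Ifna13, Ifna15 and Ifnk, the keratinocyte interferon, with 14 counts in all. Ifna13 had 1 count among anti-p40 libraries and 1 among WT. Ifna15 had 1 among anti-p40 libraries and 1 among day 77 vehicle libraries. Ifnk had 4 counts in a 30 mg/kg library, 2 in the anti-p40 group, 2 in day 77 vehicle and 2 in WT. Of the interferon lambda genes, Ifnl2 had 3 counts at 30 mg/kg and 1 with anti-p40, and Ifnl3 had 0. None of these genes could be tested. Ifng, which encodes interferon gamma, was detected: 420 counts over the 10 knockout vehicle libraries, of which 240 were in a single library, against 2 counts over the 8 WT libraries. Ifng did not pass the filter in that comparison and was not tested there.

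Of the 6 receptor chains measured, 2 were called higher in the knockout. On the log2 scale Ifnar2 was 0.46 higher (adjusted p = 0.0245, edgeR) and Ifnlr1, the lambda receptor, 0.35 higher (adjusted p = 0.0202, edgeR). Ifnar1, Ifngr1, Ifngr2 and Il10rb were not called, with log2 fold changes of -0.08, -0.04, -0.01 and 0.00. Among 11 JAK-STAT and IRF genes, 9 rose and 1 fell (Irf3). Stat2, a subunit of the response-element complex, rose by 1.63 on the log2 scale, Irf1 by 1.25, Irf7 by 1.13 and Irf9 by 0.99. Of 11 upstream sensing genes 10 rose, including Zbp1, a sensor of Z-form nucleic acid, by 3.86, and Tmem173 (STING) by 1.42. Of 8 negative regulators 5 rose and 1 fell; Socs1, the JAK inhibitor, rose by 3.15 (adjusted p = 8.37e-05, edgeR).

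Gene sets classically raised by interferon gamma had larger medians than the antiviral genes. The 15 guanylate-binding proteins and immunity-related GTPases were all higher in the knockout, with a median log2 fold change of 3.43, as were the 7 MHC class II genes (3.02) and the 3 CXCR3 ligands (5.11). Igtp, a GTPase of the vacuole membrane, had 14.1, 174 and 459.9 CPM in knockout vehicle libraries, against 6.62, 8.29 and 13.7 CPM in WT, with a log2 fold change of 4.51. Cd74, the invariant chain, rose by 3.23 and Cxcl9, a T cell attractant, by 6.27. These medians describe the lists, and the difference between them was not tested.

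**Figure D3:**
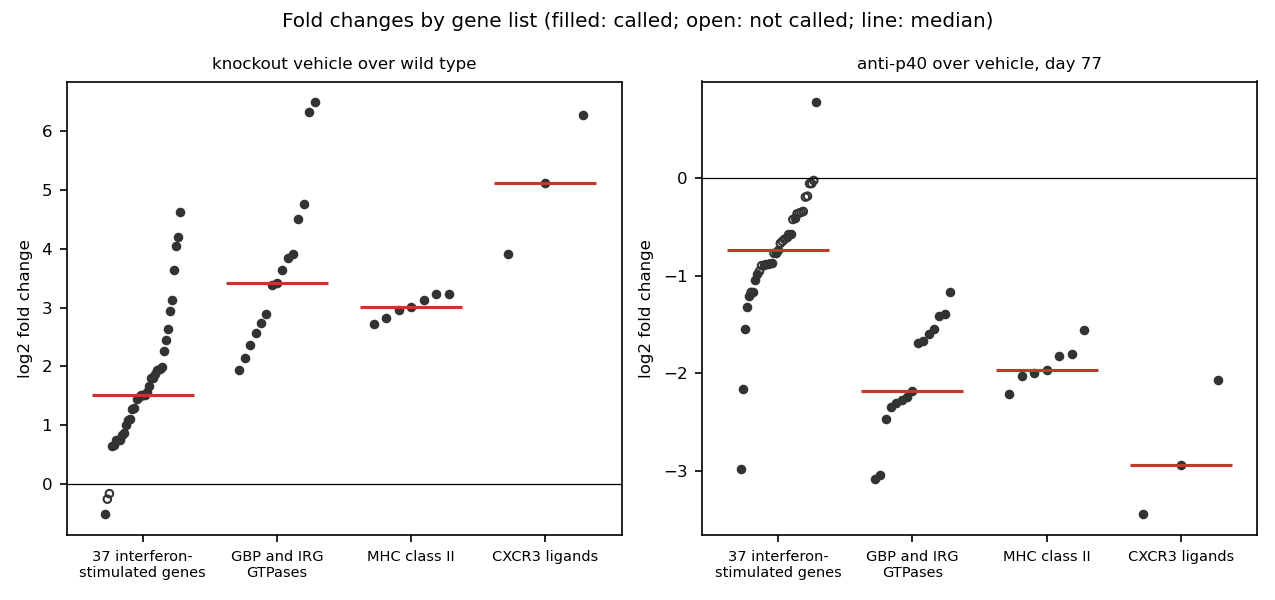
Log2 fold changes of the 37 antiviral genes beside the guanylate-binding and immunity-related GTPases, MHC class II genes and CXCR3 ligands, in knockout vehicle over WT and in day 77 anti-p40 over day 77 vehicle; filled points were called, open points were not, and the red line is the list median. The antiviral median is 1.51 in the first comparison and -0.74 in the second, against 3.43 and -2.19 for the GTPases.

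Markers of other cell types moved with the same comparison. In these bulk libraries, fewer cells of a type and less RNA per cell cannot be told apart. T cell markers were higher for 9 of 10 genes (summed level 28.9 to 81.1 CPM in knockout vehicle libraries, against 7.69 to 23.1 CPM in WT), macrophage markers for 9 of 10 (544 to 1618 CPM, against 309 to 464 CPM) and plasma cell markers for 7 of 8 (1445 to 7398 CPM, against 761 to 1243 CPM). All 4 neutrophil markers that could be tested, of 8 listed, were higher (119 to 1307 CPM, against 94.9 to 148 CPM). Epithelial markers, which check the labelled tissue, were abundant in every library and higher for 10 of 12 (15967 to 34055 CPM, against 15117 to 17976 CPM). Smooth muscle markers were lower for 8 of 8 (393 to 8598 CPM, against 5064 to 12089 CPM). Markers of plasmacytoid dendritic cells, the main makers of interferon alpha, were higher for 3 and lower for 1 of 7, and their summed level was 465 to 1094 CPM in knockout vehicle libraries, against 1039 to 1248 CPM in WT. Most of that sum was Klk1, a kallikrein not restricted to these cells, with a median of 535 CPM in knockout vehicle libraries, against 1063 CPM in WT. Their defining gene Siglech was not called, at -0.44 (adjusted p = 0.193, edgeR). B cell markers were higher for 4 of 7 (66.7 to 419 CPM, against 24.96 to 232 CPM) and endothelial markers lower for 4 of 8 (58.2 to 120.1 CPM, against 69.9 to 111 CPM). The part of these cell types in the antiviral result was not tested.

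The second question is what blocking p40 does in the knockout. In the day 77 cohort, 16 of the 37 antiviral genes were lower with anti-p40 than with vehicle, 1 was higher (Ifi27) and 20 did not pass the test. The median log2 fold change was -0.74, against 0.01 over all 16470 genes tested, of which 8.32% were called lower and 8.35% higher (edgeR, adjusted p under 0.05). All of the 37 except Ifi27 had a negative estimate. An unadjusted p under 0.05 was found for 27 of the 37, against 5399 of the 16470 genes tested. For 12 of the 37 every anti-p40 library lay below every vehicle library, which held for 8.32% of genes with a mean of at least 1 CPM. Without day 77 vehicle library 3, which was the highest of its group for 31 of the 37, 14 genes were called and the median was -0.57. The count fell further without single anti-p40 libraries: 8 genes were called without library 1, 8 without library 2 and 10 without library 3, and 11 without vehicle library 1.

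Ifit2 had the largest difference. It had 6.45, 8.29, 4.81, 11.6 and 10.6 CPM in the 5 anti-p40 libraries, against 70.0, 48.3, 126, 48.3 and 39.2 CPM in the 5 vehicle libraries. Every anti-p40 library was below every vehicle library and near the WT range of 6.73 to 9.97 CPM. The log2 fold change of Ifit2 was -2.99 ± 0.36 (adjusted p = 0.000651, edgeR). The other IFIT genes did not pass: Ifit1 at -0.65 (adjusted p = 0.211), Ifit3 at -0.63 (adjusted p = 0.058) and Ifit3b at -0.77 (adjusted p = 0.0883, all edgeR). Ifit1, for example, ranged over 6.12 to 18.9 CPM with anti-p40, against 12.8 to 29.3 CPM with vehicle, so these groups overlapped.

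Ifi44 had 2.15, 4.30, 2.40, 5.15 and 3.56 CPM with anti-p40, against 12.9, 12.8, 30.1, 14.2 and 9.65 CPM with vehicle. The groups did not overlap, and the log2 fold change was -2.17 ± 0.34 (adjusted p = 0.0028, edgeR). Among the other effectors Cmpk2 fell by 1.05 (adjusted p = 0.0364, edgeR). Its neighbour and partner Rsad2 gave -0.19 and did not pass (adjusted p = 0.756, edgeR), with 5.30 to 17.5 CPM under anti-p40, against 7.32 to 20.9 CPM under vehicle. Mx1 at -0.19 and Mx2 at -0.37 did not pass either (adjusted p = 0.675 and 0.464, edgeR). Isg20 gave -0.02 (adjusted p = 0.97, edgeR) from 14.04, 15.1, 19.0, 12.8 and 13.7 CPM with anti-p40, against 13.2, 11.3, 32.3, 9.86 and 9.94 CPM with vehicle. Vehicle library 3 held the highest Isg20 value, and without it the estimate was 0.43.

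Among the oligoadenylate synthetases Oas3 passed the test and the other 5 did not. Oas3 had 5.55, 14.6, 13.5, 28.4 and 17.3 CPM with anti-p40, against 40.9, 43.3, 82.9, 40.9 and 25.6 CPM with vehicle. Anti-p40 library 4, at 28.4 CPM, lay above vehicle library 5, so the groups overlapped. The log2 fold change was -1.55 ± 0.39 (adjusted p = 0.0224, edgeR). Oas2 gave -0.96 (adjusted p = 0.143), Oasl2 -0.89 (adjusted p = 0.0941), Oasl1 -0.88 (adjusted p = 0.0921) and Oas1a -0.34 (adjusted p = 0.177, all edgeR). Oas1a ranged over 53.3 to 97.4 CPM with anti-p40, against 77.2 to 114 CPM with vehicle. Oas1g had 34.4, 40.9, 42.6, 69.2 and 56.2 CPM with anti-p40, against 52.8, 58.1, 56.2, 46.9 and 40.9 CPM with vehicle, and its estimate of -0.06 was close to 0 (adjusted p = 0.861, edgeR).

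In the ISG15 pathway, Usp18 and Herc6 fell. Usp18 had 2.61, 4.44, 1.94, 4.78 and 4.93 CPM with anti-p40, against 8.52, 6.36, 19.2, 7.23 and 5.80 CPM with vehicle. No Usp18 library overlapped, and the log2 fold change was -1.32 ± 0.38 (adjusted p = 0.0353, edgeR). Herc6 fell by 1.17 ± 0.24 (adjusted p = 0.00916, edgeR). Isg15 had the same log2 fold change, -1.17, but missed the threshold (adjusted p = 0.0565, edgeR), with 5.87, 10.6, 4.47, 18.2 and 11.8 CPM under anti-p40, against 22.1, 24.0, 38.9, 16.7 and 14.1 CPM under vehicle. Anti-p40 library 4 lay above vehicle libraries 4 and 5 for Isg15. Trim25 gave -0.06 (adjusted p = 0.837, edgeR), from 234, 262, 257, 289.5 and 307 CPM with anti-p40, against 261, 277, 402, 243 and 231 CPM with vehicle.

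Both membrane factors fell. Ifitm3 had 66.5, 72.1, 49.8, 58.4 and 59.0 CPM with anti-p40, against 96.6, 136, 128, 121 and 91.1 CPM with vehicle, and the groups were apart. Its log2 fold change was -0.89 ± 0.14 (adjusted p = 0.00235, edgeR). Bst2 had 21.4, 24.7, 13.4, 25.8 and 25.1 CPM with anti-p40, against 41.7, 44.1, 68.3, 33.6 and 32.7 CPM with vehicle, again without overlap, at -0.99 ± 0.23 (adjusted p = 0.0165, edgeR).

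Among the sensors, Dhx58 at -0.74 and Eif2ak2 at -0.57 fell (adjusted p = 0.0482 and 0.0401, edgeR), while Ddx58 at -0.42 and Ifih1 at -0.36 did not pass (adjusted p = 0.139 and 0.211, edgeR). Ifih1 ranged over 56.4 to 92.1 CPM with anti-p40, against 74.2 to 136 CPM with vehicle. In the ADP-ribosylation complex, Parp9 at -0.88 and Dtx3l at -0.87 fell (adjusted p = 0.0148 and 0.0333, edgeR), and Parp14 at -0.90 missed the threshold (adjusted p = 0.0581, edgeR). Parp9 had 56.0, 56.0, 59.4, 91.5 and 102 CPM with anti-p40, against 138, 126, 177, 135 and 102 CPM with vehicle, so the highest anti-p40 library reached almost to the lowest vehicle library. Of the modulators Ifi204, Trim30a, Xaf1 and Ifi35 fell, by 1.21, 0.77, 0.61 and 0.41 (adjusted p = 0.0338, 0.0247, 0.0496 and 0.0302, edgeR). Rtp4 at -0.67 and Sp100 at -0.58 did not (adjusted p = 0.081 and 0.118, edgeR).

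Ifi27 again ran against the others. It had 54.5, 65.1, 48.2, 77.1 and 58.0 CPM with anti-p40, against 39.97, 36.1, 29.2, 30.2 and 42.5 CPM with vehicle. Every anti-p40 library lay above every vehicle library, a log2 fold change of 0.78 ± 0.15 (adjusted p = 0.0059, edgeR). A complete separation upward held for 6.91% of genes. Ifi27l2a gave -0.35 and did not pass (adjusted p = 0.387, edgeR), with 9.21 to 26.2 CPM under anti-p40, against 14.96 to 27.4 CPM under vehicle.

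Set beside the knockout comparison, which shares no libraries with this one, 16 of the 34 genes higher in the knockout were lower with anti-p40 and 18 were not called. Ifi27, the gene lower in the knockout, was higher with anti-p40, and the 2 not called in the knockout were not called here. Calls for Ifit2, Ifi44, Herc6, Ifitm3, Bst2, Parp9 and Ifi27 held under every alternative tried, while the other 10 were lost under at least 1. The authors' deposited table for the same comparison called 23 of the 37 lower and 1 higher, with every estimate of the same sign as here. The share of all genes called in that table was not counted. DESeq2 as run here called 24 of the 37 and 3824 genes in all, against 2745 genes in all with edgeR.

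The pathway genes and the interferon gamma sets moved with anti-p40 as well. Ifng had 14 counts over the 5 anti-p40 libraries, against 151 over the 5 vehicle libraries, a log2 fold change of -3.47 ± 1.05 (adjusted p = 0.0436, edgeR). Of the 151, 94 were in vehicle library 3, which stood apart for many antiviral genes, and 11 of the 14 were in a single anti-p40 library. On the log2 scale Stat2 and Irf1 fell by 0.76 and 0.75 (adjusted p = 0.0196 and 0.0352, edgeR), while Irf7 at -0.29 and Irf9 at -0.37 did not pass (adjusted p = 0.395 and 0.0631, edgeR). None of the 6 receptor chains was called in the edgeR fit. Socs1 gave -1.49 and did not pass (adjusted p = 0.0786, edgeR). All 15 GTPases (median -2.19), all 7 MHC class II genes (-1.97) and all 3 CXCR3 ligands (-2.95) were lower. Igtp had 42.1, 21.2, 24.1, 25.8 and 78.9 CPM with anti-p40, against 169.5, 169.3, 353, 119.8 and 66.5 CPM with vehicle.

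Cell markers moved here too. With anti-p40, T cell markers were lower for 7 of 10 genes (12.4 to 27.6 CPM in sum, against 37.9 to 67.7 CPM with vehicle), macrophage markers for 8 of 10 (442 to 583 CPM, against 767 to 1624 CPM) and plasma cell markers for 5 of 8 (1690 to 2768 CPM, against 3935 to 6015 CPM). Neutrophil markers were lower for 3 of the 4 tested (106 to 414 CPM, against 242 to 1438 CPM), and Ngp was at 0 in all anti-p40 libraries. Smooth muscle markers were higher for 7 of 8 (4311 to 10559 CPM, against 1606 to 4182 CPM). Epithelial markers were split, 1 higher and 1 lower. The plasmacytoid dendritic cell list had 1 gene higher (Klk1) and 1 lower (Ly6d), and its summed level was 954 to 1310 CPM with anti-p40, against 309 to 614 CPM with vehicle. Klk1 again made up most of it, with a median of 1079 CPM with anti-p40, against 324 CPM with vehicle, while Siglech was not called (log2 fold change 0.31). None of the 7 B cell markers was called, and 1 of 8 endothelial markers was higher. Their part in the antiviral result was not tested.

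Anti-p40 libraries were also set against WT. The day 77 cohort and the WT group may differ by more than genotype and antibody, and these cannot be told apart. Of the 37, 12 were called higher than in WT and none lower, where 7.13% of 18021 genes were called higher and 4.37% lower (edgeR). At an unadjusted p under 0.05 there were 18 of the 37, against 4530 of the 18021 genes. Oas3 was the most raised, at 2.42 ± 0.40 on the log2 scale (adjusted p = 0.00011, edgeR), and all 5 anti-p40 libraries were above the WT maximum of 4.36 CPM. Oas2 at 1.66, Usp18 at 1.53, Rsad2 at 1.34, Rtp4 at 1.08, Mx2 at 1.07 and Oasl2 at 1.04 were also called. Smaller called differences were those of Bst2 (0.83), Ifit3 (0.82), Ifitm3 (0.79), Xaf1 (0.77) and Trim25 (0.48). Ifit2 gave -0.03 ± 0.54 (adjusted p = 0.986, edgeR). For Oas3, Trim25, Xaf1, Ifitm3 and Ifi204 every anti-p40 library lay above every WT library in CPM, which held for 4.85% of genes. In TPM the groups overlapped for Xaf1, Ifitm3 and Ifi204. The number called depended on single libraries: it was 7 without anti-p40 library 2, 6 without library 4 and 6 without library 5.

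The third question is whether compound 13 changed these genes in the knockout. At neither dose was any of the 37 called against vehicle. At 10 mg/kg the median log2 fold change of the 37 was 0.35, with 32 positive, and 8 had an unadjusted p under 0.05 (7 higher and 1 lower). The background was 0.0118% of the 16948 genes called by edgeR, or 2 genes, with 1865 at an unadjusted p under 0.05; DESeq2 called 72 genes. At 30 mg/kg the median was -0.03, with 14 positive and 1 member at an unadjusted p under 0.05. At 30 mg/kg edgeR called 0 genes, with 1004 at an unadjusted p under 0.05, and DESeq2 called 3 genes. DESeq2 called none of the 37 at either dose.

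A missed threshold does not show that the compound left these genes alone. At 30 mg/kg the 95% interval lay within a 2-fold change either way for 33 of the 37, but at 10 mg/kg for only 22. Ifit2 had 9.25 CPM at the lowest, 118 at the median and 503 at the highest with vehicle, 60.2, 202 and 535 CPM at 10 mg/kg, and 29.9, 111 and 329 CPM at 30 mg/kg, with overlap throughout. The spread of Ifit2 within each dose group was thus wider than the differences between their medians. In the authors' deposited tables none of the 37 was called at either dose; the signs were those found here for 37 of 37 at 10 mg/kg but for 29 of 37 at 30 mg/kg, where the largest difference in log2 fold change was 0.38 and the authors' median was 0.01.

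The smallest p at 10 mg/kg belonged to Isg20, Rsad2 and Rtp4. Isg20 had 7.28, 10.6 and 14.5 CPM with vehicle, 4.91, 6.81 and 10.8 CPM at 10 mg/kg and 7.19, 9.82 and 13.3 CPM at 30 mg/kg. Its log2 difference at 10 mg/kg was -0.49 (95% interval -0.83 to -0.15, adjusted p = 0.317, edgeR). Rsad2 had 9.29, 18.2 and 33.5 CPM with vehicle, 14.8, 28.7 and 58.4 CPM at 10 mg/kg and 14.9, 20.4 and 39.2 CPM at 30 mg/kg. The Rsad2 difference at 10 mg/kg was 0.79 (0.24 to 1.35, adjusted p = 0.317, edgeR) and that of Rtp4 was 0.66 (0.15 to 1.18, adjusted p = 0.349, edgeR). At 30 mg/kg the smallest p were those of Bst2 at -0.38 (-0.76 to -0.01, adjusted p = 0.836), Usp18 at -0.77 (-1.67 to 0.13, adjusted p = 0.891) and Ifitm3 at -0.24 (-0.57 to 0.09, adjusted p = 0.917, all edgeR).

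The doses were also compared directly. None of the 37 was called between 30 mg/kg and 10 mg/kg in edgeR, where the background was 0 genes called and 2451 genes had an unadjusted p under 0.05. DESeq2 called 343 genes, none of them among the 37. Of the 37, 9 had an unadjusted p under 0.05 (1 higher and 8 lower at 30 mg/kg), and the median difference was -0.39. Trim30a gave -0.86 (-1.41 to -0.30, adjusted p = 0.149), Ddx58 -0.43 (-0.74 to -0.11, adjusted p = 0.209) and Ifi44 -1.15 (-2.09 to -0.22, adjusted p = 0.244, all edgeR). A single library weighed on both medians. Without 10 mg/kg library 7, the highest of its group for 33 of the 37, the median was 0.14 at 10 mg/kg over vehicle and -0.19 for 30 mg/kg over 10 mg/kg. The 3 compound comparisons share libraries in pairs.

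**Figure D4:**
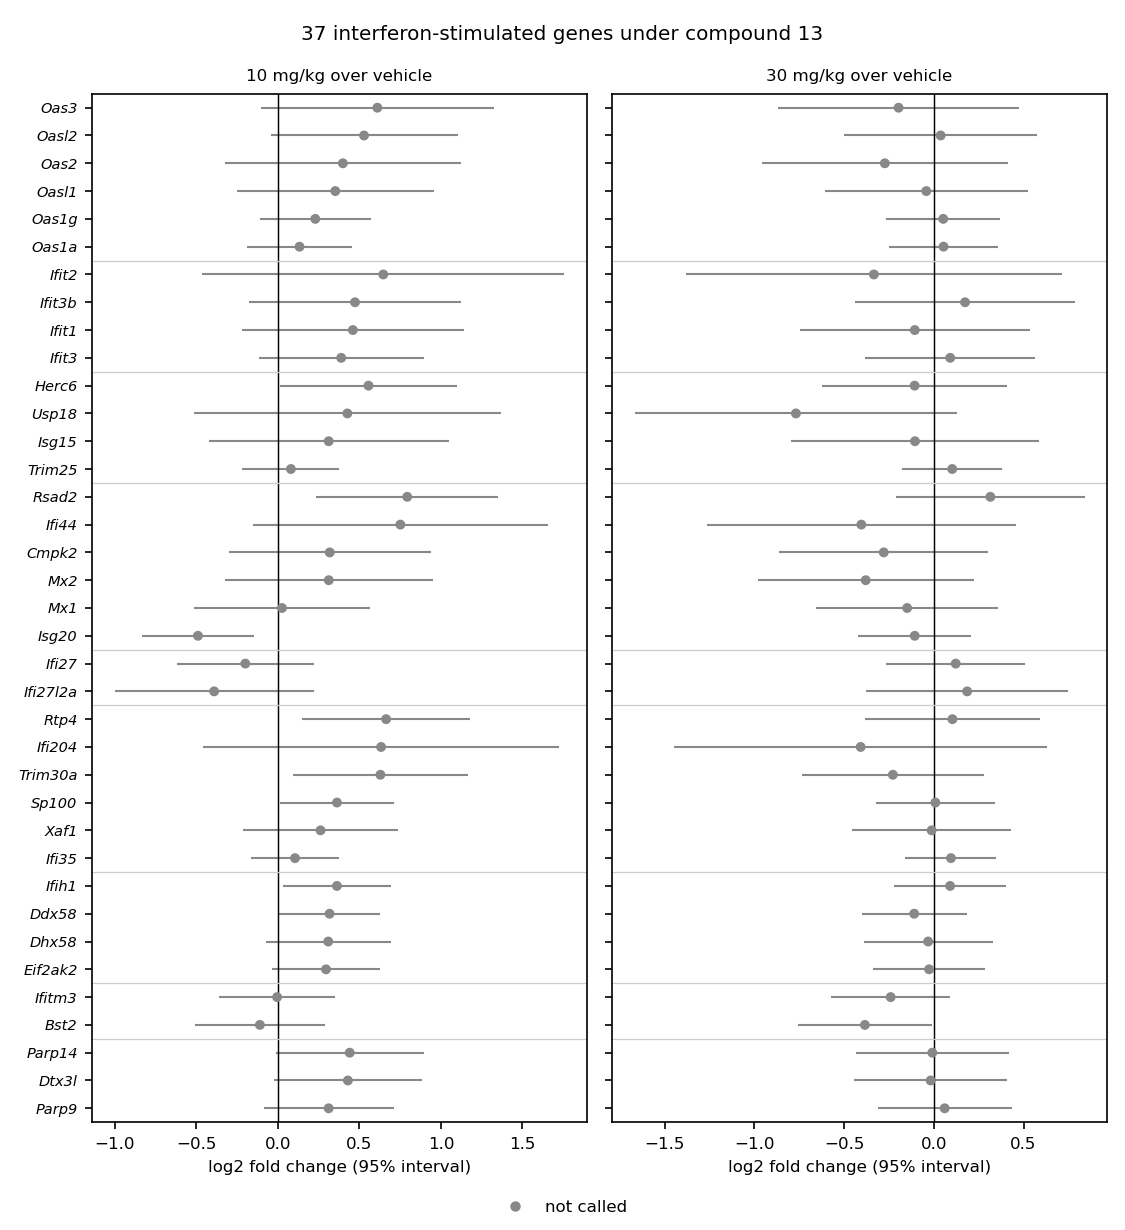
Log2 fold change with 95% interval of the 37 genes for 10 mg/kg over vehicle and for 30 mg/kg over vehicle, in IL10 knockout colon. No gene was called at either dose; the medians are 0.35 at 10 mg/kg and -0.03 at 30 mg/kg.

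Marker sets differed between the doses without calls. The 8 smooth muscle genes all had negative estimates at 10 mg/kg over vehicle (median -0.93) and positive ones at 30 mg/kg (median 0.35). The GTPases had 15 positive estimates of 15 at 10 mg/kg (median 0.56) and 1 of 15 at 30 mg/kg (median -0.31). In the same order of doses, positive estimates numbered 7 and 0 of 7 for B cell markers and 10 and 2 of 10 for T cell markers. Macrophage markers had 9 and 2 of 10, plasma cell markers 7 and 2 of 8, and neutrophil markers 3 and 1 of 5. Plasmacytoid dendritic cell markers had 4 and 1 of 7, and endothelial markers 5 and 0 of 8. CXCR3 ligands had 3 and 0 of 3, epithelial markers 6 and 12 of 12, and MHC class II genes 6 and 6 of 7. The part of these in the antiviral estimates was not tested.

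Both dose groups were also set against WT. At 10 mg/kg 34 of the 37 were higher and 2 lower, where 50.2% of genes were called, 25.3% higher and 24.9% lower; the lower genes were Isg20 at -0.74 and Ifi27 at -0.71. At 30 mg/kg 34 were higher and none lower, where 20.1% of 18021 genes were called higher and 15.6% lower in edgeR. With library totals alone as the scale these all-gene splits were 2617 higher and 7064 lower at 10 mg/kg, and 1917 higher and 5800 lower at 30 mg/kg, with medians of -0.26 and -0.24. These comparisons and that of knockout vehicle share the WT libraries.

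The effect of anti-p40 and that of 30 mg/kg, each over its own vehicle group, were compared in 1 model. None of the 37 was called, where 1.65% of genes (297 of 18021) were, 0.444% higher and 1.2% lower with anti-p40. At an unadjusted p under 0.05 there were 16 of the 37, against 2787 of the 18021 genes. Of the 16, 15 had the lower estimate with anti-p40. DESeq2 called 2 of the 37 and 640 genes in all. The median difference was -0.60. Ifit2 came closest, at -2.64 (-4.14 to -1.15, adjusted p = 0.0517, edgeR), followed by Parp9 at -0.94 (adjusted p = 0.0746, edgeR). The antibody and the compound were given in different cohorts, so a difference between cohorts cannot be told apart from this one.

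Across the 6 groups, mean CPM was highest at 10 mg/kg for 31 of the 37 genes and lowest in WT for 32. Without 10 mg/kg library 7 these counts were 25 and 32. The order was not counted over all genes, and none of the 37 was called at 10 mg/kg over vehicle. Levels between genes were compared as TPM, which corrects for length. The order turned over between groups. In knockout vehicle libraries Ifitm3 had the highest mean of the 37, at 188 ± 40.1 TPM (SD, n = 10), followed by Ifi27 at 123 ± 41.7 TPM. In WT Ifi27 was the highest, at 211 ± 15.1 TPM (SD, n = 8), and Ifitm3 had 126 ± 28.4 TPM. Isg15 averaged 94.98 TPM in knockout vehicle libraries, above Trim25 at 75.7 TPM, whereas in WT Isg15 averaged 14.3 TPM and Trim25 51.9 TPM. Ifitm3 was highest in day 77 vehicle libraries, at 339 ± 59.5 TPM (SD, n = 5), and had 198 ± 27.0 TPM in day 77 anti-p40 libraries (SD, n = 5). At the low end, Mx2 averaged 3.77 TPM in knockout vehicle libraries and 1.39 TPM in WT.

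The median log2 ratio of the 37 genes to their WT mean gives each library a single value. It was 0.40 to 2.04 in knockout vehicle libraries (median 1.45), 1.12 to 2.60 in 10 mg/kg libraries (median 1.64), 1.04 to 1.72 in 30 mg/kg libraries (median 1.28) and -0.22 to 0.21 in WT. The anti-p40 libraries had 0.11, 0.49, 0.18, 0.79 and 0.66, against 0.93 to 1.83 (median 1.12) in day 77 vehicle libraries. The highest of the anti-p40 libraries, library 4, had a summed GTPase level of 275 CPM, while library 5 had 661 CPM. Day 77 vehicle library 5 had 627 CPM. Within the anti-p40 group the library highest for the antiviral genes was thus not the highest for the GTPases.

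**Figure D5:**
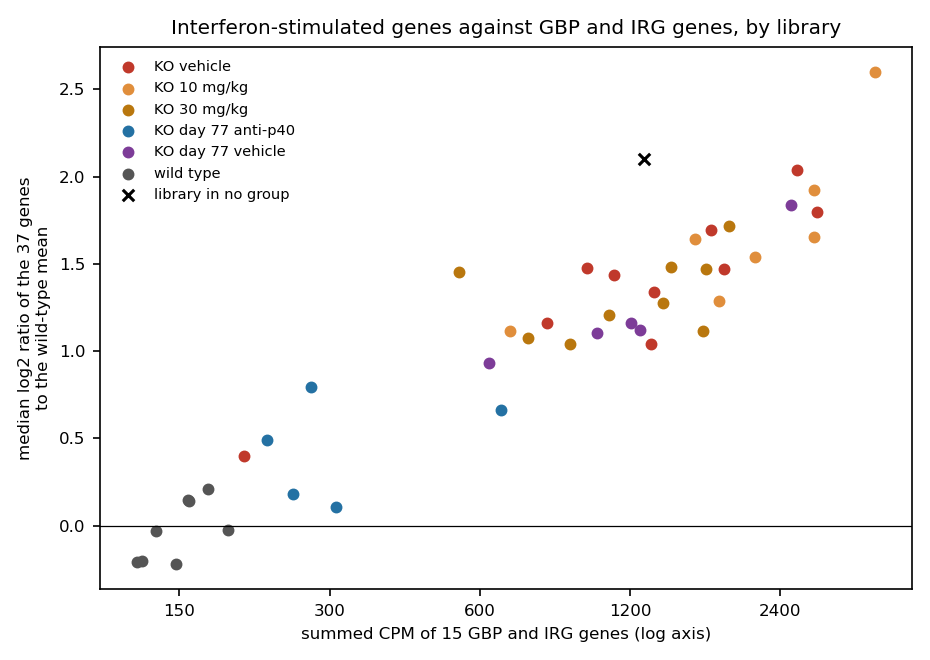
Each library by the summed CPM of the 15 guanylate-binding and immunity-related GTPase genes (log axis) and by the median log2 ratio of the 37 antiviral genes to their WT mean; colours are groups and the cross is the library in no group. WT libraries lie between -0.22 and 0.21, anti-p40 libraries between 0.11 and 0.79, and every other knockout library except the lowest knockout vehicle library (0.40) lies higher.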

How the data were processed

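RNA was extracted from distal colon with RNeasy columns and poly(A)-enriched, per the labels' protocols. The submitters' processing notes name build mm10, RSEM 1.3.3 and STAR 2.7.8a, and also DESeq2 1.30.1 and cutadapt 3.7. The authors deposited RSEM estimated counts and TPM per library, and comparison tables with log2 fold changes and p-values. Of the deposited estimated counts, 17.1% were fractional in the earlier tables and 20.4% in those of day 77; all were rounded to whole numbers. Of 50600 gene IDs, 50376 matched GENCODE M21 (GRCm38).

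Genes passing edgeR's low-count filter were scaled by TMM and fitted with the robust quasi-likelihood test (edgeR 4.0.16, R 4.3.3), with Benjamini-Hochberg adjustment over all genes tested and a threshold of 0.05. Knockout vehicle over WT and anti-p40 over vehicle were fitted on their own groups, the compound comparisons on the first-cohort knockouts, and contrasts with WT or between cohorts on all groups. DESeq2 1.42.0, limma 3.58.1 (voom, and log2(TPM + 1)), other filters and scalings and leaving out each library were the alternatives. The edgeR test was also run on simulated counts in which few genes changed, as many upward as downward. In knockout vehicle over WT 49.4% of genes were called, so that simulation does not check the scaling there. Within groups, no pair of libraries agreed within sampling noise. Pairs across groups, or with the library in no group, were not looked at.

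The 37 genes and the comparison lists were chosen with earlier results of these data known, so no p-value is given for a list. Genes are described in full where they had the largest, smallest, opposite or missed changes, the highest TPM of their role, or the smallest p under the compound; for most of the genes missing the threshold under anti-p40, ranges or the estimate alone are given. Replicate numbers follow accession order and pair nothing. Promoter sequences are RefSeq's, GRCm38.p6. A pathway gene that this rule would name is not reported here.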

Additional observations from a re-analysis of the deposited data

Results flagged for a closer look

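Dixon's criterion was applied to 222 gene-and-group sets, in groups of 5 to 10 libraries. In 36 of them (16.2%) the highest or lowest library lay far from its neighbours. Chance gives about 1 in 20 groups where values are normally distributed. CPM were used without a log, all flags but 1 were at the high end, and the genes are not independent. The 1 in 20 is therefore no firm baseline here. All values are CPM, and no explanation was tested.

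Day 77 vehicle library 3 stood above its group for 18 genes: Oas2 at 24.9, Oasl1 at 203, Oasl2 at 127, Ifit1 at 29.3, Isg20 at 32.3, Usp18 at 19.2, Rsad2 at 20.9, Mx2 at 6.42, Ifi44 at 30.1, Ifih1 at 136, Eif2ak2 at 97.5, Cmpk2 at 37.6, Rtp4 at 43.7, Trim25 at 402, Parp14 at 371, Dtx3l at 247, Xaf1 at 23.5 and Ifi204 at 13.95.

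Library 7 of the 10 mg/kg group stood above its group for 10 genes: Oas3 at 251, Oasl2 at 367, Ifit1 at 102, Mx1 at 24.95, Ifi44 at 127, Ddx58 at 74.4, Trim30a at 87.9, Herc6 at 118, Xaf1 at 40.6 and Sp100 at 109.

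Knockout vehicle library 2 was high for 5 genes: Oas2 at 51.9, Ifit2 at 503, Usp18 at 49.4, Trim30a at 54.7 and Ifi204 at 26.4. Knockout vehicle library 3 was low for Oas1g at 39.2. Library 1 of the 30 mg/kg group was high for Herc6 at 67.7 and Ifi204 at 20.996.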

How the results depend on the processing

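No paired analysis was possible because the labels give the groups no replicate numbers. Leaving out 1 library at a time, the number of the 37 genes called ranged from 35 to 36 for knockout vehicle over WT, 33 to 35 for 30 mg/kg over WT, 36 to 36 for 10 mg/kg over WT, 0 to 0 for the compound comparisons, 8 to 20 for anti-p40 over vehicle, 6 to 15 for anti-p40 over WT and 0 to 2 for the anti-p40 effect minus the 30 mg/kg effect. The 8 came without anti-p40 library 1 or 2. It was 10 without anti-p40 library 3 and 11 without vehicle library 1. All-gene counts for the fits leaving out 1 library are not given here. For anti-p40 over vehicle limma on log2(TPM + 1) called 11, with 1835 genes called in all. DESeq2 called 24 there, with 3824 in all, against 17 and 2745 in the main fit. For anti-p40 over WT voom called 5, with 2009 genes called in all, against 12 and 2072 in the main fit. A fit of only those groups called 19 of the 37. The effect difference gave 1 call with a filter at 1 CPM, 2 with DESeq2 (640 genes in all) and 1 on log2(TPM + 1) (348 in all). The order of group means was also taken without each of 4 libraries, an alternative chosen after seeing the data. There 10 mg/kg was highest for 25 to 31 of the 37 genes and WT lowest for 32, again without a count over all genes. Requiring more than a 1.5-fold change kept 28 of the 35 knockout calls.

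A few small estimates changed sign, none of them called in either setting. With anti-p40 over vehicle, the fit without scaling gave 0.0022 for Oas1g, 0.081 for Isg20 and 0.019 for Trim25. Values on log2(TPM + 1) were 0.11 for Oas1g, 0.17 for Isg20, 0.062 for Trim25 and 0.087 for Mx2. Isg20 was 0.000585 with the 1 CPM filter and 0.17 with voom. Leaving out 1 library at a time, Oas1g ranged from -0.22 to 0.041, Isg20 from -0.15 to 0.43, Trim25 from -0.12 to 0.092 and Rsad2 from -0.51 to 0.14; the highest of these came without anti-p40 library 1 for Oas1g and without vehicle library 3 for the others. In knockout vehicle over WT, Ifi27l2a ranged from -0.27 to 0.0196, the highest without WT library 5. The cause was not tested. Depth limits the interferon ligands, which had too few counts to test.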

Other observations

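The library in no group, whose title names 30 mg/kg and whose treatment label names 10 mg/kg, had 35 of the 37 antiviral genes above the WT mean, with a median log2 ratio of 2.10. It had 226 CPM for Ifit2, 168 for Oas3, 96.2 for Ifi44, 77.6 for Isg15, 33.5 for Usp18, 36.0 for Rsad2, 81.1 for Ifitm3 and 56.4 for Ifi27. Its summed level of the 15 guanylate-binding and immunity-related GTPases was 1282 CPM, with Igtp at 159.8 CPM and Cxcl9 at 17.6 CPM.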
